A study of Drosophila melanogaster with 30 samples.

Results

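This account describes the response of posterior leg disc fragments of Drosophila melanogaster to cutting, read after 24 h of culture. The members are the 1480 probe sets of the authors' table of cut comparisons, out of 18769 probe sets tested after the array controls were set aside. The 3 arrays of cut posterior fragments at 24 h were set against the 3 arrays of uncut posterior fragments at 24 h. The series holds 30 arrays in 10 groups of 3, and the other 24 arrays (12 h cultures, anterior fragments and discs taken at 0 h) enter here only as context and in the estimate of the spread.

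All groups shared 1 genotype and came from male larvae (w/Y) of 100 h after egg laying. The larvae carried AyGAL4 together with UAS-GFP over an unmarked chromosome (+), and elsewhere puc[E69-I]-GAL4 opposite UAS-flp. In this stock a GAL4 inserted at puckered, a target of JNK signalling, drives a recombinase that switches on lasting GFP in the cells that used the driver and in their descendants. Prothoracic leg discs were cut into an anterior 1/4 and a posterior 3/4 and cultured in the abdomens of adult females. The controls are labelled uncut with the same region names, and an uncut fragment below means a sample with that label. From cut fragments the GFP-positive region was isolated, and from uncut fragments the corresponding region without such a mark. Cutting and the selection of GFP-positive cells therefore cannot be told apart, the cells selected were those in which the puckered driver had been active, and the adult host is a possible source of cells on the fragments. The labels call the 3 arrays of a group biological replicates without saying how discs were pooled, so p-values rest on the spread between these samples.

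Imaginal discs are larval epithelial sacs that become adult appendages. When a disc is cut, the wound edge activates JNK signalling, cells close the wound, and a local group of cells proliferates again and is respecified, while the damaged disc secretes the relaxin-like peptide Ilp8 and thereby delays metamorphosis. The cytokines of the unpaired family carry the damage signal through JAK/STAT signalling, and matrix metalloproteases remodel the matrix around the wound.

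Every value below is a log2 value centred so that the mean of a probe set over the 30 arrays is 0. A value of 1 therefore lies 1 log2 unit above that gene's own mean, and absolute levels, or levels of different genes, cannot be compared. A difference of 1 is a 2-fold change. A probe set is called where the adjusted p of limma, adjusted over all 18769 probe sets, is under 0.05, and a permutation of 3 arrays against 3 could not go below 0.1. The table was filtered by its authors on a test that included this comparison, so the share of its rows called is a description, and a gene absent from it is not listed rather than unchanged.

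Of the 1480 rows, 601 were higher in the cut fragments, 534 were lower and 345 were not called. Over all probe sets tested 9.85% were called, 4.81% higher and 5.04% lower. A change of at least 2-fold was called in 177 rows upwards and in 79 rows downwards, against 1.73% of all probe sets in either direction. All 3 cut arrays lay above all 3 uncut arrays in 687 rows and below them in 633, and such a separation was met in 23.3% of all probe sets. Rises of at least 2-fold therefore outnumbered falls of that size, although the median change over all probe sets was -0.0019. Among all probe sets tested the uncut arrays 1 and 3 correlated with r = 0.745, while uncut array 2 correlated with them at 0.404 and 0.383, and the cut arrays correlated with each other at 0.371 to 0.560. In 61.6% of the 1135 rows called, uncut array 2 was the uncut array nearest to the cut arrays. The count of 1848 probe sets called fell to 1055 without uncut array 1 and to 1079 without uncut array 3, and was 2002 without uncut array 2. None of the markers of the posterior compartment (en, inv, hh) or of the anterior compartment (ci, ptc) was among the named probe sets, and absolute levels are lost, so the fragments' identity could not be checked from these values.

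**Figure D1:**
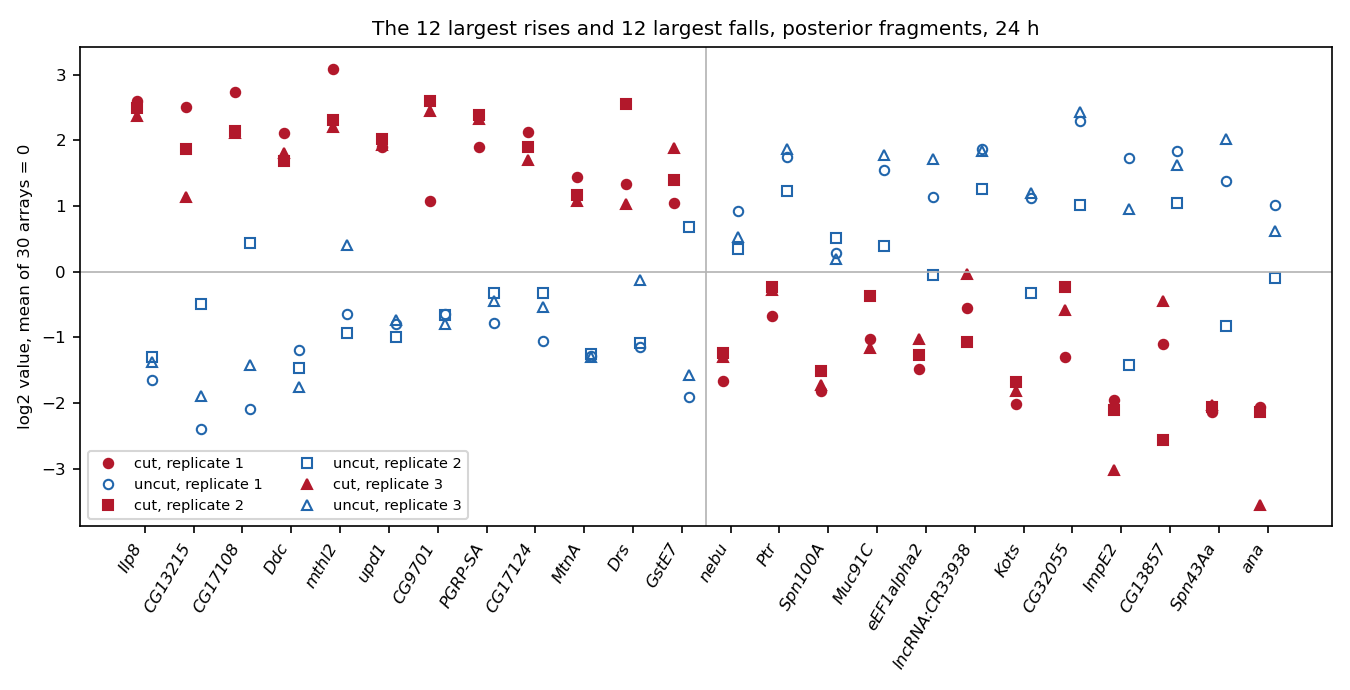
Centred log2 values (vertical axis) of the 12 genes with the largest rises and the 12 with the largest falls among rows called with no overlap between groups. Filled red symbols are the 3 cut arrays, open blue symbols the 3 uncut arrays at 24 h, and the symbol's shape gives the replicate number. For Ilp8 the cut arrays sit between 2.37 and 2.60 and the uncut arrays between -1.64 and -1.30, while uncut array 2 (squares) sits nearest to the cut arrays for genes such as CG17108, GstE7 and ImpE2.

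Damage signals of the disc were higher in cut fragments. Ilp8, the secreted peptide that delays pupariation, read 2.60, 2.50 and 2.37 on the cut arrays and -1.64, -1.30 and -1.37 on the uncut arrays. The values within each group spanned a small part of the gap between them. Ilp8 was 15.2-fold higher after cutting (95% interval 11.2 to 20.7, adjusted p = 8.5e-12, n = 3 and 3), the largest rise in the table. The cytokine upd1 read 1.90, 2.02 and 1.93 in cut fragments and -0.79, -0.99 and -0.74 in uncut fragments. It rose 6.92-fold (interval 5.26 to 9.10, adjusted p = 8.5e-10) with no overlap. The related cytokine upd3 rose by a log2 change of 0.45 (SE 0.10, adjusted p = 0.0046), its 3 cut arrays at 0.43, 0.24 and -0.04 lying above uncut values of -0.19, -0.35 and -0.18.

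The lists of pathways and cell types are counted over their genes that are named in either of the authors' filtered tables. Of these 3171 named genes 38.7% were called, 20.7% higher and 18.0% lower, and the counts of the lists stand against this share rather than the 9.85% of all probe sets. The JAK/STAT list was mixed. Of 10 named members, from 14 on the list, 4 were higher and 2 lower, with a median of 0.13. The ligand upd2, the receptor dome and the transcription factor Stat92E were not listed. The transcription factor chinmo, a target of STAT in other tissues of the fly, read 2.09, 1.05 and 1.96 in cut fragments against -0.35, 0.33 and 0.03 in uncut fragments and rose 3.24-fold (adjusted p = 0.00059). The phosphatase Ptp61F, a negative regulator of the pathway, rose by 0.59 (adjusted p = 0.013), and this call was lost without cut array 1 (adjusted p = 0.0974). Another probe set of Ptp61F rose by 0.44 with all arrays (adjusted p = 0.032). The feedback inhibitor Socs36E had a change of 0.30 that was not called (adjusted p = 0.11), although its cut arrays at 0.34, 0.39 and 0.30 lay above uncut arrays at -0.03, 0.23 and -0.06. The kinase hop fell by 0.36 (adjusted p = 0.015), lost without cut array 2 (0.0711) or uncut array 1 (0.102). The homeodomain and zinc-finger factor zfh2 read -0.30, -0.32 and -0.35 in cut fragments and 0.42, 0.43 and 0.39 in uncut fragments. It fell 1.67-fold (adjusted p = 0.00015), with the 3 arrays of each group within 0.1 of each other.

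The list of JNK components and targets holds 22 genes, of which 10 were named. Of these 10, 5 were higher, 0 were lower and 5 were not called. Of all named genes 38.7% were called in either direction and 20.7% were called higher. The secreted serine protease homologue scaf read 0.90, 1.11 and 0.78 against -0.76, -0.53 and -0.56 and rose 2.92-fold (adjusted p = 2.0e-05). The transcription factor Ets21C rose 2.46-fold (adjusted p = 0.00053), with cut array 3, at 0.17, lower than the other cut arrays at 0.99 and 0.79. The growth factor Pvf1 rose 2.34-fold and its receptor Pvr 1.96-fold (adjusted p = 0.00043 and 0.00018), and the filamin cher rose by 0.57. In each of these 5 genes the groups did not overlap. The kinase bsk, the Fos factor kay and the JNK ligand egr were not called on the probe sets used, with changes of -0.37, 0.0 and -0.10. A further probe set of egr, the one the authors listed, fell by 0.81 (adjusted p = 0.0018), so the probe sets of egr disagreed. The gene puc itself, whose driver marked the cells, was not listed.

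Proteases and other genes known from disc regeneration and wound repair gave 8 rises and 1 fall among 13 named members of the 16 on the list. Mmp1, a matrix metalloprotease, read 1.67, 1.12 and 1.44 in cut fragments against -1.23, -0.60 and -0.86 in uncut fragments. It rose 4.95-fold (interval 3.19 to 7.69, adjusted p = 2.6e-05), and its other 2 probe sets rose as well, by 2.01 and 1.39. The second metalloprotease, Mmp2, rose by 0.66 (adjusted p = 0.016), a call lost without cut array 2 (0.136) or uncut array 1 (0.137). The gene rgn, known as regeneration, read 0.75, 0.41 and 0.35 against -0.28, -0.33 and -0.25 and rose 1.73-fold (adjusted p = 0.00053). The transcription factor grh, which in the fly epidermis drives wound-response genes such as Ddc, fell by 0.55 (adjusted p = 0.00033).

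**Figure D2:**
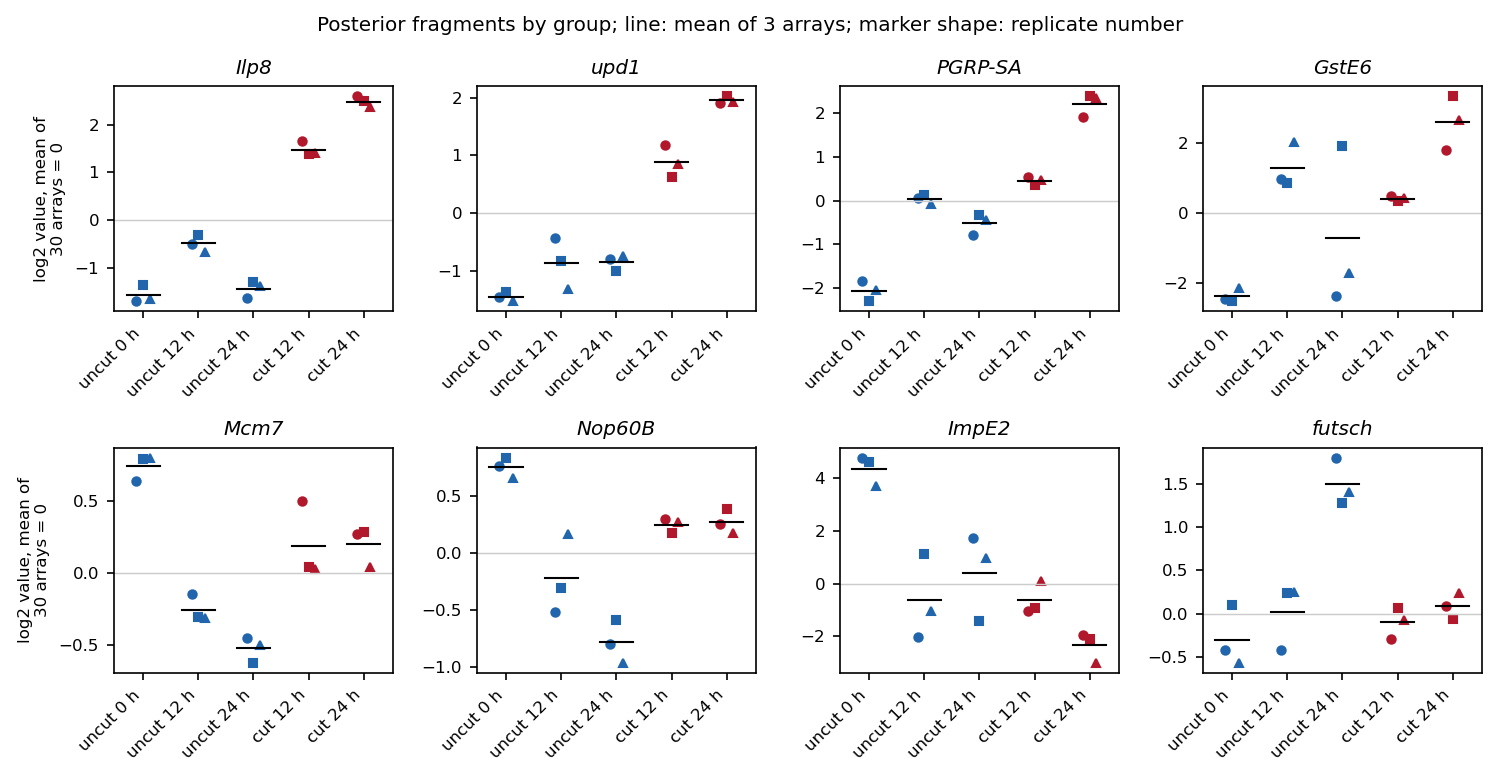
Centred log2 values (vertical axes) of 8 genes in the 15 posterior arrays, by group: uncut discs at 0, 12 and 24 h in blue and cut fragments at 12 and 24 h in red. Each symbol is 1 array and each line the mean of 3, and the vertical scales differ between panels. Ilp8 and upd1 are highest at 24 h after cutting, Mcm7 and Nop60B are highest in discs taken at 0 h and lowest in uncut fragments at 24 h, and the uncut 24 h arrays of GstE6 and ImpE2 are widely spread.

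Immune effectors and recognition proteins were among the genes that rose. Of 15 named members of the innate immunity list, which holds 41 genes, 11 were higher and 0 lower and the median was 1.11. With each array left out in turn 10 or 11 were called. PGRP-SA, a circulating receptor for bacterial peptidoglycan, read 1.90, 2.38 and 2.33 in cut fragments and -0.78, -0.32 and -0.45 in uncut fragments. Its rise of 6.61-fold (interval 5.01 to 8.71, adjusted p = 1.2e-09) left a gap of more than 2 log2 units between the groups. Drosomycin (Drs), an antifungal peptide, read 1.34, 2.55 and 1.03 against -1.14, -1.09 and -0.12 and rose 5.37-fold (adjusted p = 0.0015). The immune-induced peptide IM10 rose 5.14-fold, with cut arrays at 1.13, 2.14 and 1.92 and uncut arrays at -0.51, -0.76 and -0.62 (adjusted p = 0.00035). In Drs and IM10 the second cut array was the highest.

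The antibacterial peptides that were named followed the same direction. Others on the list, such as DptA, Dro, CecA1 and Def, have no value here. Of the 15 named immune genes 11 are in the filtered table of cut comparisons. CecB rose 3.69-fold, with 2.90 on the first cut array and 0.74 and 1.59 on the others, all above the uncut arrays at -0.09, -0.06 and -0.27 (adjusted p = 0.00027). AttA read 1.20, 1.59 and 1.69 against -0.43, -0.16 and -0.12 and rose 3.32-fold (adjusted p = 3.8e-05). Mtk and AttD rose 3.05-fold and 2.38-fold. PGRP-LB, an enzyme that degrades peptidoglycan, rose by 1.11, the peptide BomBc1 by 0.93 and the serpin nec, an inhibitor of the Toll cascade, by 0.75. The Toll-pathway transcription factor Dif rose by 0.48 (adjusted p = 0.016), a call lost without cut array 3 (0.111) or uncut array 3 (0.0718). The other transducers named, Rel, dl, pll and PGRP-LC, were not called, with changes between -0.16 and 0.30. The only named Turandot stress peptide, TotM, read -0.32, -0.10 and 1.37 in cut fragments and -1.29, -1.28 and -1.24 in uncut fragments, and its change of 1.59 was not called (adjusted p = 0.099).

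Markers of blood cells were higher in the same fragments. Of 8 hemocyte markers 4 were named, and the clotting protein Hml, the phagocytic receptors eater and NimC1 and the scavenger receptor Sr-CI were all called higher, by 1.34, 1.22, 0.96 and 1.28. Their mean read 1.10, 0.889 and 0.639 in cut fragments and -0.501, -0.742 and 0.264 in uncut fragments, so that uncut array 3 stood nearest to the cut arrays. Calls were lost for Hml without uncut array 2 (adjusted p = 0.0624), for eater without uncut array 1 (0.0527) and for NimC1 without any array other than cut array 3 and uncut array 3 (0.0825 to 0.135). The longer hemocyte list had 6 rises among 9 named genes, which became 2 without uncut array 1 or 2, beside 1 fall in the latter case. Yp1, a yolk protein of adult females and so a marker of the host, read 1.10, 1.73 and 3.22 in cut fragments and 0.56, -0.11 and 0.06 in uncut fragments. It was called higher (adjusted p = 0.012), but not without cut array 3 (log2 change 1.24, adjusted p = 0.113). It was the only 1 of 13 host markers that was named, and none of 7 fat body markers was. The part of blood cells or host tissue in the rise of the immune genes was not tested, and in bulk samples more cells of a type and more RNA per cell cannot be told apart.

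Glutathione transferases and metallothioneins rose as well. Of 32 genes on the detoxification list 11 were named. All 7 named glutathione transferases of the delta and epsilon classes, enzymes that conjugate reactive compounds to glutathione, were higher, with a median of 2.03. These 7 are rows of the filtered table of cut comparisons. Other genes of these classes on the list, such as GstD1 and GstE2, have no value here, so the count does not describe the whole classes. The 4 other named genes of the detoxification list, GstO1, GstO2, Gclc and Keap1, were not called and changed by -0.01 to 0.18. GstE6 read 1.81, 3.34 and 2.66 in cut fragments and -2.36, 1.91 and -1.72 in uncut fragments. It was 10.05-fold higher (interval 3.94 to 25.6, adjusted p = 0.0014), but uncut array 2 lay above the first cut array, so the groups overlapped. Without uncut array 2 its log2 change was 4.65, and without uncut array 1 it was 2.51. GstE7 showed no overlap, at 1.05, 1.40 and 1.89 against -1.91, 0.68 and -1.57, a rise of 5.21-fold (adjusted p = 0.0022) that became 3.19 on the log2 scale without uncut array 2. For GstE5 the change was 2.18 with all arrays and 2.80 without uncut array 2. GstE3 rose 4.07-fold, and GstD3 and GstE1 by 1.21 and 1.02. GstD2 rose 3.11-fold (adjusted p = 0.013), a call lost without cut array 1 (0.0575) or uncut array 3 (0.0761).

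The metallothionein MtnA, a small protein that binds copper and other metals, read 1.44, 1.17 and 1.07 after cutting and -1.28, -1.25 and -1.29 without it. It rose 5.67-fold (adjusted p = 0.00027), and the uncut arrays lay within 0.1 of each other. MtnB rose 4.40-fold, from uncut values of -2.22, -2.30 and -1.16 to 0.95, 0.19 and -0.41 (adjusted p = 0.04). Its call was lost without any array other than cut array 3 and uncut array 3, with adjusted p from 0.0886 to 0.157. The copper importer Ctr1B fell by 0.49 (adjusted p = 0.027), lost without cut array 1 (0.0945), cut array 3 (0.0783) or uncut array 1 (0.246). The remaining 5 named genes of metal handling, among them both ferritin subunits, were not called.

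Genes of cuticle hardening and pigmentation gave 6 rises and 2 falls among 11 named genes, from 23 on the list. Ddc, dopa decarboxylase, makes dopamine for tanning and is also switched on at wounds. It read 2.11, 1.68 and 1.82 in cut fragments and -1.19, -1.47 and -1.75 in uncut fragments. Its rise of 10.1-fold (interval 4.47 to 22.96, adjusted p = 0.00039) separated the groups by more than 2 log2 units. The gene b, whose product makes beta-alanine for tanning, rose 2.79-fold, and e, whose product joins beta-alanine to dopamine, rose by 0.82. The call for e was lost without cut array 3 (0.0509), uncut array 1 (0.0551) or uncut array 3 (0.104). Among genes of the yellow family, of which 7 are named, yellow-c rose 4.09-fold, yellow-b 3.51-fold, yellow-f 1.87-fold and yellow-g 1.78-fold, while yellow-e3 and yellow-h fell and yellow-e was not called. The yellow-b arrays read 1.51, 1.57 and 1.32 against -0.61, -0.10 and -0.33. Gld, glucose dehydrogenase, went the other way, with 0.93, 0.64 and 0.10 in cut fragments against 2.50, 1.89 and 1.91 in uncut fragments, and fell 2.91-fold (adjusted p = 0.0011). The gene yellow-e3 read -1.04, -1.09 and -0.88 in cut fragments and -0.18, -0.18 and -0.20 in uncut fragments and fell by 0.82 (adjusted p = 0.0017). Its change at 12 h was 0.19, and the difference in time was called (adjusted p = 0.046). The gene yellow-h fell by 0.75 (adjusted p = 0.018), lost without cut array 3 (0.113), uncut array 1 (0.0676) or uncut array 3 (0.143).

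Of 14 named genes of replication and the cell cycle, from 33 on the list, 6 rose, each by less than 2-fold, 1 fell and 7 were not called. Mcm7, a subunit of the replicative helicase, read 0.27, 0.28 and 0.04 in cut fragments and -0.45, -0.63 and -0.50 in uncut fragments. The groups were apart, and the rise was 1.65-fold (interval 1.32 to 2.06, adjusted p = 0.0032). The helicase loader dup rose 1.57-fold (adjusted p = 0.0052) and the ribonucleotide reductase subunits RnrL and RnrS by 0.57 and 0.43. The sliding clamp PCNA rose by 0.48 (adjusted p = 0.015), not called without cut array 1 (0.0566), cut array 2 (0.0681) or uncut array 3 (0.0687). RnrL was not called without uncut array 1 (0.0795) or 3 (0.0573), and Mcm6, which rose by 0.39, was not called without any array other than cut array 3 (0.0943 to 0.14). The replication inhibitor gem fell by 0.42 (adjusted p = 0.0049). The cyclins CycE and CycA and the kinase Cdk1 were not called, with changes of -0.25, -0.30 and 0.27. The probe sets of fzy disagreed: the one used was not called (0.45, adjusted p = 0.058), and the one the authors listed fell by 0.56 (adjusted p = 0.0011). The list had 8 rises without cut array 3 and 3 without uncut array 3.

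Of 21 named members of the ribosome biogenesis list, from 26 on it, 12 were higher, 9 were not called and 0 were lower, with a median of 0.53. The pseudouridine synthase Nop60B read 0.25, 0.38 and 0.18 in cut fragments and -0.80, -0.59 and -0.96 in uncut fragments and rose 2.07-fold (adjusted p = 0.00022). The rRNA methyltransferase Fib rose 1.88-fold, the ribosome assembly factor RpLP0-like 1.86-fold and nop5, a core protein of small nucleolar particles, 1.75-fold. All of these had groups that did not overlap. Myc, the transcription factor that drives growth and ribosome synthesis, was not called, with 0.25, 0.30 and 0.08 against 0.38, 0.37 and 0.08. The count was between 9 and 12 with each array left out in turn.

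Mcm7 and Nop60B were also lower after culture without cutting than in the disc at 0 h. Mcm7 averaged 0.74 ± 0.09 (SD, n = 3) in posterior discs at 0 h, -0.53 ± 0.09 in uncut fragments at 24 h and 0.20 ± 0.13 in cut fragments at 24 h. Nop60B averaged 0.75 ± 0.09, -0.78 ± 0.19 and 0.27 ± 0.10 in the same groups. The fall in uncut culture was called for both genes (log2 changes -1.27 and -1.53, adjusted p = 9.4e-07 and 2.1e-07), in a comparison where 24.1% of all probe sets were called. The cut fragments at 24 h thus lay between the disc at 0 h and the uncut fragment for both genes. The culture comparison and the cut comparison share the 3 uncut arrays at 24 h, so their values are given side by side only.

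Further families of housekeeping proteins, picked by symbol after their values were seen, showed many small rises. Of 46 named subunits of the respiratory chain and ATP synthase 28 were higher and 0 lower, with a median of 0.36. Of 41 named mitochondrial ribosomal proteins 22 were higher and 0 lower (median 0.37), while of 17 named cytoplasmic ribosomal proteins 1 was higher and 2 lower (median -0.09). Among 30 named proteasome subunits 14 were higher and 0 lower (median 0.37). The proteasome count was 4 without uncut array 1 or uncut array 3, and the mitochondrial ribosomal count was 12 without cut array 1. The respiratory count was 19 without cut array 1 or uncut array 3. The named genes of either table, 3171 in all, had a median of -0.0078, and 20.7% of them were called higher. In anterior fragments at 24 h the medians of the respiratory, mitochondrial ribosomal and proteasome families were 0.60, 0.54 and 0.41, so these rises were not particular to posterior fragments. In posterior fragments at 12 h the medians of the same families were 0.30, 0.34 and 0.34. During uncut posterior culture from 0 h to 24 h they were -0.59, -0.62 and -0.71, in a comparison that shares the uncut 24 h arrays.

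Of 16 genes on the glycolysis list 4 were named and all were called. Phosphofructokinase (Pfk) read -0.31, -0.52 and -0.49 in cut fragments and 0.37, 0.49 and 0.53 in uncut fragments and fell 1.88-fold (adjusted p = 9.7e-06), with the groups well apart. The aldolase Ald1 fell 1.42-fold and the isomerase Pgi 1.41-fold, although a further probe set of Ald1 was not called. Lactate dehydrogenase, Ldh, rose 4.45-fold (adjusted p = 0.0037), from uncut values of -1.86, -0.19 and -1.75 to 0.62, 1.10 and 0.95. Ldh is named from the authors' table of culture comparisons and is not a row of their table of cut comparisons.

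Ecdysone-responsive genes, which carry the hormone signal for metamorphosis, gave 4 rises and 7 falls among 20 named members of the 28 on the list, beside 38.7% of all named genes called. ImpE2, a secreted protein induced by ecdysone in discs, read -1.94, -2.10 and -3.01 in cut fragments and 1.73, -1.43 and 0.95 in uncut fragments. All cut arrays lay below all uncut arrays, but uncut array 2 was close to them. ImpE2 fell 6.83-fold (interval 2.71 to 17.2, adjusted p = 0.0057). Its log2 change was -2.12 and not called without uncut array 1 (adjusted p = 0.0676), and -3.69 without uncut array 2. ImpE3 fell 3.47-fold (adjusted p = 0.0059), not called without uncut array 1 (0.0594). The early response factor br read -0.29, -0.94 and -0.75 against 0.71, 0.20 and 0.36 and fell 2.12-fold (adjusted p = 0.00029). All 5 of its probe sets fell. The list had 7 calls without uncut array 1, against 11 with all arrays. Eip75B, a nuclear receptor, fell 2.23-fold, and Eip74EF, an ETS factor, 1.73-fold, although 1 of 3 probe sets of Eip75B was not called.

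The late factor Eip93F had cut arrays at -0.39, -0.53 and 0.23 and uncut arrays at 1.53, 0.08 and 2.004, which overlap. It fell 2.70-fold (adjusted p = 0.0039), lost without uncut array 3 (0.0521). The protease Sb, needed for leg eversion, fell by 0.88 (adjusted p = 0.032), a call lost without any array other than cut array 2 and uncut array 2 (0.0913 to 0.226). The receptor EcR was not called, at -0.24. Besides Ldh, the rises were those of Cyp18a1, the enzyme that inactivates ecdysone, of Cth and of ImpE1, by 1.06, 0.60 and 0.92. For Cyp18a1 the call was lost without cut array 1 (0.0754) or uncut array 1 (0.0528), for ImpE1 without cut array 1 (0.0993), uncut array 2 (0.054) or uncut array 3 (0.0536). Other probe sets of both genes were not called. The enzyme chitinase 5 (Cht5), which digests old cuticle at moults, read -0.75, -0.36 and -0.59 in cut fragments and 1.36, 0.25 and 1.59 in uncut fragments and fell 3.10-fold (adjusted p = 0.0013). In the list of chitin genes it was the only fall among 12 named, and Idgf1 and Cda5 were the rises, at 1.38 and 0.75. Cda5 was not called without cut array 1 (0.0672), cut array 3 (0.0907) or uncut array 2 (0.13).

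**Figure D3:**
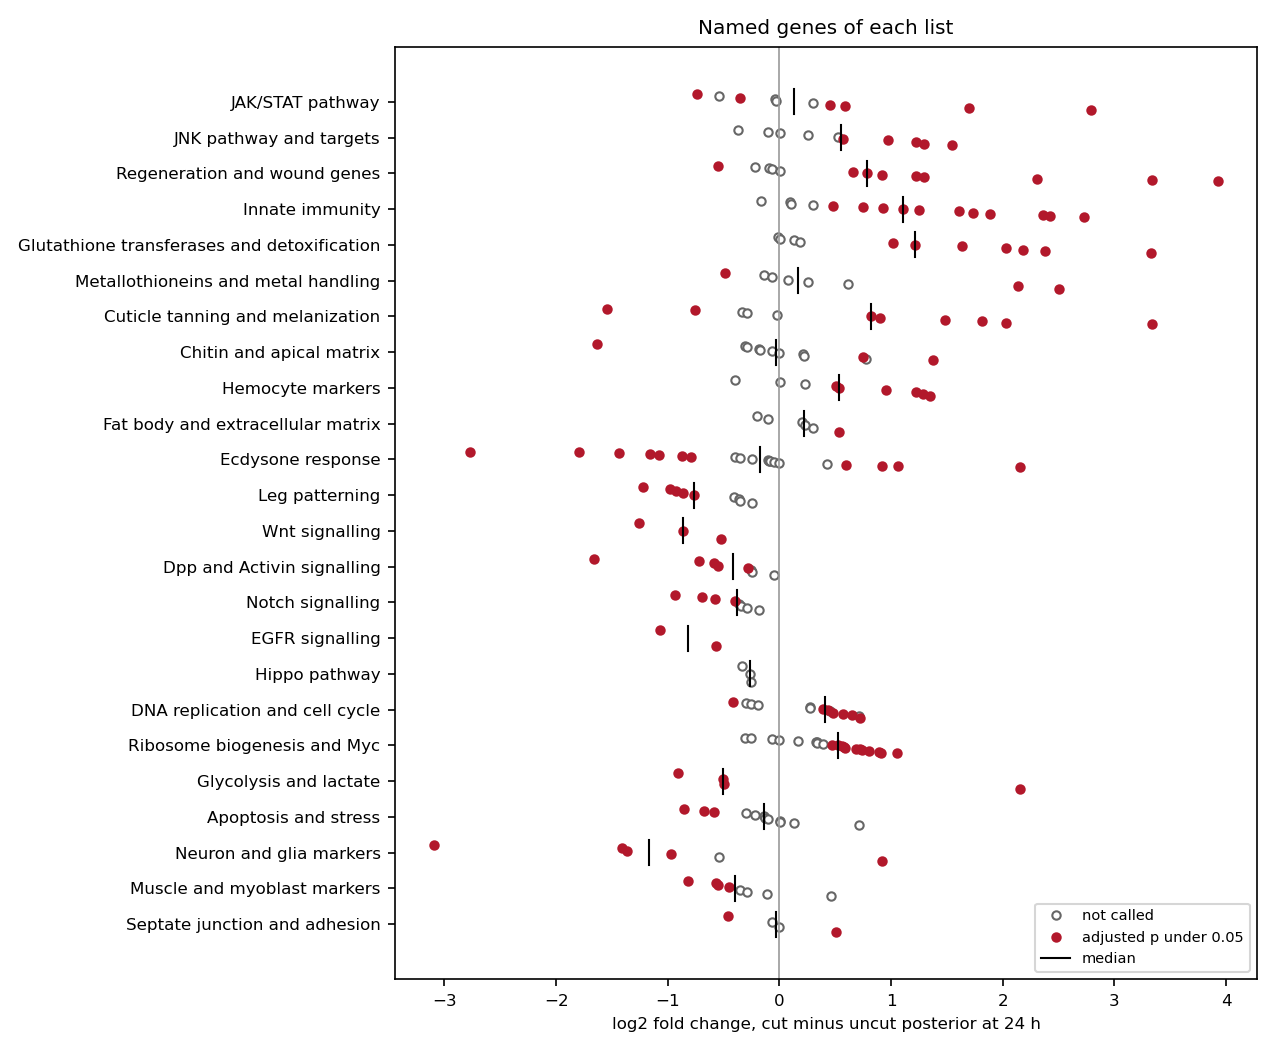
Log2 fold changes between cut and uncut posterior fragments at 24 h (horizontal axis) for the named genes of each list with 2 or more such genes. Filled red points have an adjusted p under 0.05, open points do not, and the black line is the median of the list. The medians of innate immunity (1.11) and detoxification (1.21) lie on the right, and those of leg patterning (-0.77) and Wnt signalling (-0.86) on the left.

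Of 39 genes on the leg patterning list 9 were named, and the other 30 have no value here. Of the 9 named genes 5 were lower, 0 higher and 4 not called, and the median was -0.77. The tarsal factors bab1 and bab2 fell 2.33-fold and 1.90-fold (adjusted p = 0.0014 and 7.5e-05). For bab2 the cut arrays at -0.58, -0.44 and -0.35 were all below the uncut arrays at 0.72, 0.25 and 0.44. Scr, the Hox gene of the prothoracic segment, fell 1.70-fold, from 0.42, 0.02 and 0.17 to -0.67, -0.68 and -0.34 (adjusted p = 0.00025). The T-box factor H15, a gene of ventral leg identity, fell by 0.98 (adjusted p = 0.018), lost without cut array 3 (0.0976) or uncut array 1 (0.0879). The LIM factor ap fell by 0.86 with an adjusted p of 0.0498, lost without any array other than cut array 2 (0.0683 to 0.281), and its other probe set was not called. The list had 3 falls without uncut array 1.

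Signalling genes of disc patterning were lower in cut fragments wherever they were called. Of 20 genes on the Wnt list only 3 were named, all rows of the filtered table of cut comparisons, and the others have no value here. These 3 fell: the ligands Wnt2 and Wnt4 2.39-fold and 1.82-fold, and the receptor fz 1.44-fold. Wnt2 read -0.02, -0.46 and -0.20 against 1.48, 0.51 and 1.10. The Wnt ligand wg was not listed.

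Of 8 named genes of the Dpp and Activin list, from 21 on it, 5 fell and 0 rose. The extracellular protein magu, which modulates Dpp signalling, read -0.91, -1.18 and -1.42 in cut fragments and 0.64, 0.39 and 0.45 in uncut fragments. It fell 3.16-fold (interval 2.53 to 3.95, adjusted p = 2.7e-07). The Smad factor Mad and the receptor wit fell 1.51-fold and 1.46-fold. The call for crm, at -0.72, was lost without cut array 2 (0.0786) or uncut array 3 (0.0638), and that for shn, at -0.28, without any array other than cut array 3 and uncut array 2 (0.106 to 0.177), and the list had 3 falls without cut array 2 or uncut array 3. The ligand dpp was not listed.

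In the Notch list of 18 genes 4 of 8 named genes fell and 0 rose, where 38.7% of all named genes were called and 18.0% were called lower. E(spl)mdelta-HLH, a direct target of Notch, read -0.45, -0.48 and -0.28 against 0.34, 0.22 and 0.32 and fell 1.62-fold (adjusted p = 0.00054). The falls of E(spl)m7-HLH, the corepressor H and the ligand Dl were 0.93, 0.58 and 0.40. Their calls were lost without uncut array 1 (adjusted p = 0.121, 0.0617 and 0.195) or cut array 2 (0.125, 0.0816 and 0.193), when the list had 1 call. It had 2 without uncut array 3, where E(spl)m7-HLH (0.0766) and Dl (0.0582) were lost. The call for E(spl)m7-HLH was also lost without cut array 3 (0.0505), and that for Dl without cut array 1 (0.0632) or uncut array 2 (0.0554). Another probe set of Dl fell by 0.52 with all arrays (adjusted p = 0.0094). Of 16 genes on the EGFR list only 2 were named, both rows of the filtered table. They are the protease ru and the feedback inhibitor kek1, which fell by 1.07 and 0.57. The call for ru was lost without uncut array 3 (0.0519). The 3 named genes of the Hippo list, CycE, Zyx and Mer, were not called (adjusted p = 0.37, 0.075 and 0.058).

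The glial glycoprotein ana, which holds neuroblasts in quiescence in the larval brain, read -2.06, -2.13 and -3.54 in cut fragments and 1.02, -0.09 and 0.62 in uncut fragments. Its fall of 8.52-fold (interval 3.92 to 18.5, adjusted p = 0.00051) was the largest in the table. The microtubule-associated protein futsch read 0.09, -0.06 and 0.24 against 1.80, 1.28 and 1.41 and fell 2.65-fold (adjusted p = 0.00014). The proneural-type factor ase fell by 1.36 and the amyloid precursor homologue Appl by 0.97. The call for ase was lost without cut array 3 (0.0504), uncut array 1 (0.0811) or uncut array 3 (0.0677), and that for Appl without uncut array 3 (0.0505), when 2 of the 4 falls of the list were called. Of 6 named neural genes, from 18 on the list, 4 fell and 1 rose. The rise was that of moody, a receptor of the glia that form the blood-brain barrier, which read 0.83, 0.77 and 0.72 against -0.17, -0.20 and -0.07. Of the 7 defining neuron and glia markers only moody and repo were named, and repo was not called (-0.54, adjusted p = 0.24).

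The list of markers of muscle and of the myoblasts that lie on the disc holds 23 genes, of which 8 were named. Of these 8, 4 fell, 0 rose and 4 were not called, beside 38.7% of all named genes called and 18.0% called lower. Him, an inhibitor of muscle differentiation, read -0.59, -0.58 and -0.64 against 0.23, -0.16 and 0.59 and fell 1.77-fold (adjusted p = 0.00067). The factors twi, Mef2 and zfh1 fell by 0.45, 0.55 and 0.57. All 3 calls were lost without uncut array 1 (adjusted p = 0.147, 0.0779 and 0.0757) or uncut array 3 (0.152, 0.0611 and 0.121), when the list had 1 call. Each cut array left out ended 2 of them, twi (0.0776 to 0.0865) with either Mef2 (0.0674, cut array 1) or zfh1 (0.175 and 0.0664, cut arrays 2 and 3). Without uncut array 2 the list had 5 calls, and another probe set of Mef2 was not called. The mean of the 6 named defining markers read -0.18, -0.12 and -0.0049 in cut fragments and 0.38, 0.24 and 0.50 in uncut fragments.

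Of 12 named cell death genes and stress regulators, from 21 on the list, 3 fell, 0 rose and 9 were not called. The called share, 25.0% and all falls, stood against 38.7% of all named genes called in either direction and 18.0% called lower. The stress proteins chrb and scyl, inhibitors of TOR signalling, fell 1.59-fold and 1.51-fold and the Bcl-2 family member Buffy 1.81-fold. The call for scyl was lost without cut array 2 (adjusted p = 0.0841), and that for Buffy without cut array 2 (0.0575), when the list had 1 call, or uncut array 3 (0.0827), when it had 2. The caspase Dcp-1 and p53 were not called, with changes of 0.01 and -0.14.

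Several of the largest changes fell outside these lists. CG13215 rose 10.8-fold and CG17108 10.3-fold, the latter from -2.09, 0.44 and -1.42 to 2.74, 2.15 and 2.12, with a log2 change of 4.09 without uncut array 2. The methuselah-like receptor gene mthl2 rose 7.57-fold, and CG9701 and CG17124 rose 6.69-fold and 5.83-fold. Among the falls the serpin Spn43Aa, a protease inhibitor, read -2.13, -2.06 and -2.03 in cut fragments and 1.39, -0.82 and 2.02 in uncut fragments. It fell 7.65-fold, and its log2 change was -2.94 with all arrays and -3.78 without uncut array 2. CG13857 fell 7.33-fold, with a log2 change of -2.28 without cut array 2. CG32055 fell 6.13-fold, Kots 5.68-fold, the long non-coding RNA lncRNA:CR33938 4.61-fold and the elongation factor eEF1alpha2 4.55-fold. The mucin gene Muc91C, the serpin Spn100A, the patched-related gene Ptr and nebu fell between 4.00-fold and 4.25-fold.

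The same contrast at 12 h asked whether these changes were already present. At 12 h 5.05% of all probe sets were called. The difference between the cut effects at 24 h and at 12 h, which share no array, was called for 89 probe sets (0.474%), 73 of them larger at 24 h and 16 smaller. Of the 1480 rows it was called for 62. Ilp8 was already higher at 12 h, by a log2 change of 1.97 against 3.93 at 24 h, and the difference of 1.96 was called (adjusted p = 0.0057). PGRP-SA changed by 0.42 at 12 h, not called, and by 2.72 at 24 h, a difference of 2.30 (interval 1.74 to 2.87, adjusted p = 0.00017). For upd1 the change was 1.74 at 12 h and 2.79 at 24 h, a difference that was not called (adjusted p = 0.079).

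The largest difference in time was that of CG13215. It changed by -1.56 at 12 h and by 3.43 at 24 h, a difference of 4.99 (adjusted p = 0.0058). Ddc changed by -0.69 and 3.34, GstE6 by -0.88 and 3.33, GstE7 by -1.57 and 2.38 and GstD2 by -2.07 and 1.64. The differences for Ddc, GstE6, GstE7 and GstD2 were 4.03, 4.20, 3.95 and 3.71, all called. Group means show where these differences lay. GstD2 averaged 2.60 ± 1.03 in uncut fragments at 12 h and -0.82 ± 0.34 at 24 h, while cut fragments averaged 0.53 ± 0.27 and 0.81 ± 0.35. Ddc averaged 1.19 ± 0.45 and -1.47 ± 0.28 in uncut fragments and 0.50 ± 0.63 and 1.87 ± 0.22 in cut fragments. For GstD2 the uncut groups were further apart than the cut groups, and for Ddc the uncut mean was lower, and the cut mean higher, at 24 h than at 12 h.

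The largest differences in the other direction belonged to CG13305, CG17564, Jhbp2, onecut and FASN3, between -2.55 and -1.72. Of these, Jhbp2 was higher at 12 h (1.32, adjusted p = 0.011) and not called at 24 h (-0.68). CG13305 fell by 1.90 at 24 h, and by 2.66 without uncut array 2 and 1.30 without uncut array 3. FASN3, a fatty acid synthase gene, fell by 0.99 at 24 h, lost without uncut array 3 (adjusted p = 0.0693). Of the 23 genes named for a difference in time, 7 kept its call with each 24 h posterior array left out: yellow-b, Ilp8, PGRP-SA, yellow-c, GstD2, GstE7 and CG13215. For the other 16, among them Ddc (adjusted p up to 0.058), GstE6 (up to 0.149) and the 5 genes with the largest negative differences (up to 0.147), leaving out at least 1 array ended it. The number of probe sets with a called difference in time was 30 without uncut array 1, 36 without uncut array 3, 52 without cut array 2, 55 without cut array 3 and 314 without uncut array 2.

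**Figure D4:**
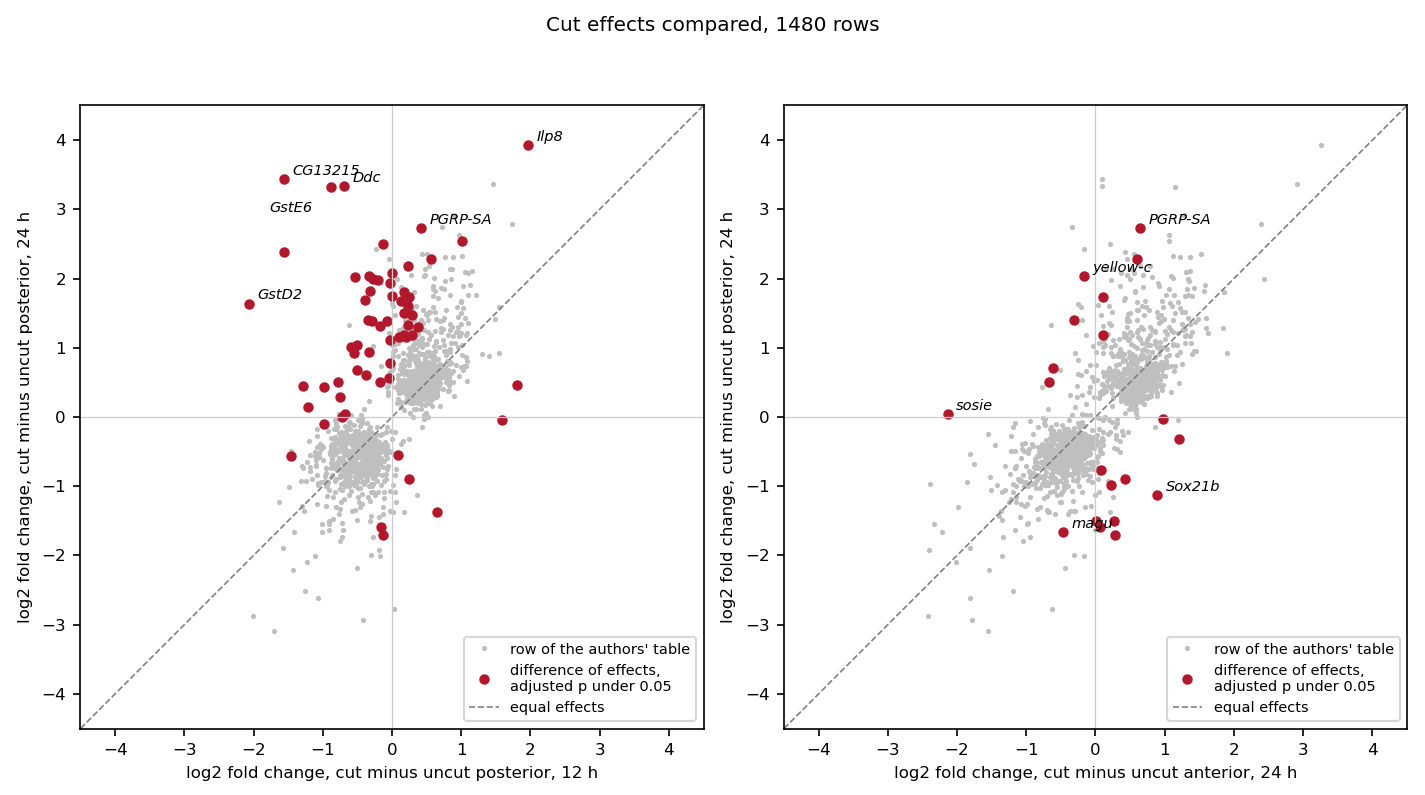
Log2 fold change between cut and uncut posterior fragments at 24 h (vertical axes) against the same contrast in posterior fragments at 12 h (left) and in anterior fragments at 24 h (right) for the 1480 rows. Red points have a called difference between the effects, 62 rows on the left and 20 on the right, and the dashed line marks equal effects. PGRP-SA lies above the line in both panels, at 0.42 and 0.65 on the horizontal axes.

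In the anterior fragments at 24 h 8.62% of all probe sets were called for cutting. The difference between posterior and anterior was called for 23 probe sets (0.123%), 20 of them rows of the table. PGRP-SA rose by 2.72 in posterior and 0.65 in anterior fragments, a difference of 2.07 (adjusted p = 0.0011). Its level in uncut fragments at 24 h averaged -0.52 ± 0.24 in posterior and 0.25 ± 0.22 in anterior fragments, and in cut fragments 2.21 ± 0.26 and 0.90 ± 0.41. The rise of AttA was 1.73 in posterior fragments while its change in anterior fragments was 0.10, and yellow-c and CG7432 changed by 2.03 and 1.41 against -0.17 and -0.31. The gene sosie was not called in posterior fragments (0.04) and fell by 2.13 in anterior fragments.

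Sox21b, a transcription factor of the Sox family, fell in posterior fragments by 1.12 and was higher in anterior fragments by 0.89 (adjusted p = 0.015), a difference of -2.02 (adjusted p = 0.012). Its posterior cut arrays at -1.57, -1.40 and -1.82 were all below the uncut arrays at 0.23, -0.92 and -0.72. CG7720, CG9896 and CG32447 fell in posterior fragments by 1.71, 1.51 and 1.58 and changed in anterior fragments by 0.28, 0.26 and 0.07, none of which was called. CG32444 was not called in posterior fragments (-0.32) and rose by 1.20 in anterior fragments. The fall of magu in posterior fragments, 1.66, stood against a change of -0.47 in anterior fragments, a difference of -1.19 (adjusted p = 0.024). On a further probe set Eip75B fell by 0.90 and was higher in anterior fragments by 0.43, a difference of -1.32 (adjusted p = 0.0026). That probe set also differed in time, by -1.14 (adjusted p = 0.0058). A further probe set of br differed between regions by -0.84 (adjusted p = 0.015). The probe sets on which Eip75B and br are read here were not called for the difference between regions (adjusted p = 0.11 and 0.083). Of the 11 genes named for a difference between regions, PGRP-SA and Sox21b kept its call with each posterior array left out, and for the other 9 the adjusted p rose as far as 0.195. The number of probe sets with a called difference was 3 without cut array 2, 4 without uncut array 1, 6 without uncut array 3, 9 without cut array 3, 49 without cut array 1 and 103 without uncut array 2. For Ilp8 (3.93 and 3.26) and upd1 (2.79 and 2.40) the differences between regions were not called, with unadjusted 95% intervals of 0.04 to 1.29 and -0.17 to 0.95.

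The authors' deposited table divides its rows into 4 k-means clusters. In cluster I, of 158 rows, 147 were higher after cutting in posterior fragments at 24 h, with a median change of 1.43 against 0.46 at 12 h and 0.62 in anterior fragments. In cluster II, of 590 rows, 448 were higher, with medians of 0.51, 0.42 and 0.59. Cluster III, of 95 rows, had 71 falls and medians of -0.93, -0.38 and -0.56, and cluster IV, of 637 rows, had 461 falls and medians of -0.50, -0.45 and -0.39. During uncut culture from 0 h to 24 h the median of cluster I was 0.65, that of cluster II -0.63, that of cluster III -0.10 and that of cluster IV 0.64. Clusters were drawn from these values, so their directions are descriptions, and the culture comparison shares the uncut 24 h arrays with the cut comparison.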

How the data were processed

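RNA of 30 samples was amplified over 2 cycles, labelled and hybridised to Affymetrix arrays, per the labels' protocols. The authors deposited log2 values made with RMA, per the submitters' processing notes. The base of the logarithm is taken from RMA's convention. Each deposited probe set has mean 0 over the arrays, and differences of group means equalled the deposited log fold changes to within 1.0e-09. The deposited table of cut comparisons holds log2 fold changes and an overall p-value adjusted by its authors with limma, the largest being 0.000998743.

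The values were fitted with limma 3.58.1 in R 4.3.3 over all 10 groups, with eBayes and Benjamini-Hochberg adjustment over 18769 probe sets after 183 controls were left out. The code was tested on simulated data. Probe sets carry the symbols of the authors' tables, updated through RefSeq (Release 6 plus ISO1 MT): 1396 of 1480 were named, for 1340 genes. Because centring removes absolute levels, a gene with several probe sets is read on the one with the largest SD over the 24 arrays of the other 8 groups, in place of the planned highest mean, and no values were filtered. Replicate numbers were not treated as pairs (correlations of deviations between same-numbered samples -0.299 to 0.317). Genes named are the 12 largest rises and falls called without overlap, up to 4 called members a list, fixed regeneration genes and the 5 largest called differences each way. Others, families included, were chosen after their values were seen. Members and lists were chosen with earlier results of these data known. The number of arrays limits the precision. Alternatives are given in the closing section.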

Additional observations from a re-analysis of the deposited data

Results flagged for a closer look

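The cut effect in posterior fragments differed from that at 12 h, or from that in anterior fragments, by a test of the difference itself (limma, adjusted over all probe sets) for the genes below. Only genes named by the rules above are given, out of 89 probe sets called for the difference in time and 23 for that between regions. Groups of 3 arrays are too small for a check of single outlying arrays.

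Between 24 h and 12 h the log2 change was larger by 4.99 for CG13215, 4.20 for GstE6, 4.03 for Ddc, 3.95 for GstE7, 3.71 for GstD2 and 3.51 for Ldh. It was larger by 2.63 for MtnA, 2.56 for GstE3, 2.37 for yellow-c, 2.30 for PGRP-SA, 2.09 for chinmo and 1.96 for Ilp8. The remaining larger effects among these named genes were 1.76 for CG7432, 1.64 for yellow-b, 1.53 for CG17124 and 1.49 for AttA. Other probe sets had called differences of similar size. In the other direction the differences were -2.55 for CG13305, -2.03 for CG17564, -2.002 for Jhbp2, -1.76 for onecut, -1.72 for FASN3, -1.58 for CG7720 and -1.43 for CG32447. Beside these differences, GstE6 averaged 1.29 ± 0.65 (SD, n = 3) in uncut fragments at 12 h and -2.36 ± 0.21 in discs at 0 h.

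Between posterior and anterior fragments at 24 h the differences were 2.20 for yellow-c, 2.17 for sosie, 2.07 for PGRP-SA, 1.71 for CG7432 and 1.63 for AttA. They were -2.02 for Sox21b, -1.98 for CG7720, -1.77 for CG9896, -1.65 for CG32447, -1.52 for CG32444 and -1.19 for magu.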

How the results depend on the processing

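The count of 1848 called probe sets (902 higher, 946 lower) was 1127 (654 and 473) when the spread came only from the 6 arrays compared, 963 (515 and 448) at an adjusted p under 0.01, and 324 (220 and 104) with a change of at least 2-fold required. Array weights gave 2350 (1027 and 1323) and centring each array on its median 1978 (901 and 1077). With each of the 6 arrays left out in turn the total ran from 1055 to 2002, the rises from 576 to 869 and the falls from 462 to 1133. The 89 differences between 24 h and 12 h became 22 at an adjusted p under 0.01 and 380 with array weights, and 30 to 314 with 1 array left out. The 23 differences between posterior and anterior became 2 and 40 under the first 2 of these settings, and 3 to 103 with 1 array left out. The causes of these shifts were not tested.

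Among same-numbered samples 38 of 135 pairs had a correlation of deviations over 0.1, and no pair of groups had it for all 3 numbers. Differently numbered samples were not compared and groups hold 3 arrays, so these values cannot exclude pairing. A fit with the replicate block called 2024 probe sets (1001 and 1023), 101 differences in time and 21 between regions.

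Of 240 called genes among those chosen by rule or belonging to a list or family, 153 kept the call without each array, 87 lost it at least once and 0 changed direction. Among the genes chosen by rule, uncalled ones turned sign without cut array 3 (sosie -0.19, Myc 0.0022, egr 0.11) and, for sosie, without uncut array 1 (-0.05). Other uncalled genes of the lists and families were not counted for this. With each array left out in turn sosie ran from -0.19 to 0.17, Myc from -0.16 to 0.0022 and egr from -0.20 to 0.11. A filter on dim probe sets, an intensity trend and a repeated quantile normalization were not run, because centring removed the levels they need.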

Other observations

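Further families were picked by their symbols after the values were seen, so their counts describe these arrays only. They stand beside 38.7% of all named genes called, 20.7% higher and 18.0% lower. Among 6 named Nimrod genes, phagocytic receptors and related secreted proteins, 5 were higher in cut fragments, with a median log2 change of 1.24. Of these 6 genes 5 are rows of the filtered table of cut comparisons. NimC4 rose by 2.33 (adjusted p = 2.7e-05) and NimB3 by 1.51, and 2 of the 5 calls remained in number without cut array 1. The serpins, inhibitors of proteases, were split: 6 of 11 named were higher, led by Spn47C at 1.39 and Spn42De at 1.30, while Spn43Aa and Spn100A were among the largest falls of the table. Among 8 tetraspanins Tsp42Ed and Tsp42El rose by 1.996 and 1.60 (2.61 for Tsp42Ed without uncut array 2), and Tsp74F fell by 0.74.

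All 6 named genes of the primase, Mcm and origin recognition families were higher, with a median of 0.72. Of these 6 genes 5 are rows of the filtered table of cut comparisons. Others, such as Mcm2, Mcm3, Mcm5 and Orc1, have no value here, so the count does not describe the whole families. Prim1 and Prim2, the subunits of DNA primase, rose by 1.07 and 0.90. The count was 3 without cut array 1, cut array 2 or uncut array 3. Of 5 named genes grouped with the Arp2/3 complex, which nucleates branched actin, 3 were higher, Arpc3B by 0.72 and Arpc4 by 0.58 among them. In uncut culture the medians of the replication genes and the actin genes were -1.26 and -0.19, in a comparison that shares the uncut 24 h arrays. Other genes with a called difference in time included the extracellular proteins Tig, Tg and Tep2, whose changes at 24 h were 2.08, 1.9996 and 1.498 and at 12 h -0.01, -0.27 and 0.17.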
